A study of Mus musculus with 2 samples.

Results

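The actin cytoskeleton of Th1 cells was described through 41 genes, taken by symbol from the 24421 genes of the expression tables of WT and Chi3l1 KO Th1 cells. The genes code for the actins, the ARP2/3 complex and its activators, proteins that bind actin monomers or filaments, small GTPases and their DOCK exchange factors, myosin II, ERM proteins and tropomyosins. All 41 symbols were found in both tables. Th1 cells came from C57BL/6J mice, either Chi3l1+/+ (WT) or Chi3l1-/- (Chi3l1 KO), a few weeks old. Naïve CD4 T cells of each genotype were activated with plate-bound antibodies to CD3 and CD28 and skewed in vitro with IL-12, IL-2 and an antibody to IL-4, so both groups share the stimulus and the cytokines. Chi3l1 codes for chitinase 3-like 1, a secreted chitinase-like protein, and the KO is labelled as one of the mouse and not of T cells alone. The tables hold 1 library of each genotype (n = 1), so no difference has a replicate check and no p-value was computed.

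Actin is a protein of globular monomers (G-actin) that assemble into filaments (F-actin). The ARP2/3 complex, switched on by WASP and WAVE proteins downstream of Cdc42 and Rac, starts branched filaments, and formins and Ena/VASP proteins lengthen filaments. Profilin and the β-thymosins bind monomers, cofilin severs filaments, capping protein blocks their ends, myosin II pulls on them and ERM proteins tie them to the membrane. T cells need these parts to crawl and to form the immunological synapse, the contact with an antigen-presenting cell. Actb, the gene of β-actin, was also the scaling gene of the RT-PCR assays of the study.

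The deposited value of a gene is read here as log2 of a normalized count plus 1, not divided by gene length, and a difference is the value of the library labelled KO minus that of WT. Rebuilt reads, the normalized counts divided by the worth of 1 read, summed to 70623845 in WT and 62958938 in the library labelled KO. Chil1, the symbol under which Chi3l1 is listed, had 1 rebuilt read in WT (log2 value 0.94) and 103 in the library labelled KO (6.66). This goes against the labels. The deleted part of the gene is not given in the sources used here, so whether these reads come from an intact gene was not tested. Ifng, the gene of the Th1 cytokine IFNγ, was at 11.72 in WT and 13.04 in the library labelled KO (difference 1.32), and the largest difference of any gene at 8 or more in both libraries was 4.81, for Ctse, the cathepsin E gene, named here after its value was seen. The study reports Ifng and Ctse as increased in Chi3l1 KO Th1 cells, in the RNA sequencing that gave these libraries and by RT-PCR. Whether the labels were exchanged was not tested. The library is called by its label, and every direction below rests on that label. All 9 T cell markers examined were at 8 or more on the log2 scale in both libraries. Rn45s, from the ribosomal RNA locus, held 2.83% of normalized counts in the WT library and 1.0% in the library labelled KO. The summed counts of 5 B cell markers were 939 and 1731. Those of 7 macrophage and dendritic cell markers were 170 and 203, with C1qa, C1qb and Adgre1 listed at 0 in both libraries. Lyz2 (5.08 and 1.53) and Itgax (5.45 and 2.53) were lower in the library labelled KO. Csf1r (6.57 and 7.41) and Mrc1 (0 and 4.86) were higher in it. In bulk samples, fewer cells of a type and less RNA per cell cannot be told apart, and the part of the B cell markers and of Rn45s in the results below was not tested.

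A circuit links monomeric actin to the transcription factor SRF, whose coactivators MRTF-A and MRTF-B (Mkl1 and Mkl2) are held by G-actin. SRF binds the CArG box, written CC, then 6 letters that are each A or T, then GG, which reads the same kind of sequence on both strands. The 250 bases before the annotated start were searched in RefSeq (GRCm38.p6) for the CArG box and, on both strands, for GGGCGG, the core of the GC box, and TATAAA. Sequences were matched for 37 of the 41 genes, with 48 starts. A CArG box lay before 3 of the 48 starts (6.25%), compared to 1.47% of all 32851 starts. These 3 are shown because theirs are the only windows of the searched genes that hold the box (Actb, Rac1, Rac2 and Diap1 were not searched), with the box and any GGGCGG on either strand in capitals. For Actg1 the run free of annotated exons around the box is printed, and for Arpc4 and Myl6, whose box lies in an annotated exon, a window of 30 bases.
Actg1 (chr11:120348543-120348677, minus strand): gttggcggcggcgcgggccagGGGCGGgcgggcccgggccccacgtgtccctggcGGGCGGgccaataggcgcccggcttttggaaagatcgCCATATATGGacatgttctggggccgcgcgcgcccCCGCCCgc
Arpc4 (chr6:113377863-113377892, plus strand): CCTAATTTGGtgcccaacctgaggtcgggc
Myl6 (chr10:128493040-128493069, minus strand): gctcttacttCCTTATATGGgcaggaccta
The box ended 81 bases before the start of Actg1, 241 before that of Arpc4 and 41 before 1 of the 2 starts of Myl6. The core GGGCGG was before 30 of the 48 starts (62.5%; all starts, 32.7%) and TATAAA before 2 (4.17%; all starts, 12.4%). These matches describe letters in a window and are not tested sites. The 3 genes did not share a direction, with differences of -0.18 for Actg1, -0.14 for Arpc4 and 0.40 for Myl6.

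Of the 41 genes, 30 were lower and 11 higher in the library labelled KO, and the median difference was -0.13 on the log2 scale (range -0.90 to 0.57), but with quantile normalization the median was 0.02 and with totals without Rn45s 0.01. No gene reached 2-fold. Over all 24421 genes, 4.70% were at least 2-fold higher and 5.81% at least 2-fold lower, and most of the genes counted there have few reads. All 41 genes reached 8 on the log2 scale in both libraries, and so did 8886 genes in all, called well expressed here. Of all well expressed genes 51.2% were lower (median -0.01), beside 73.2% of the 41. Among the well expressed genes, 0.461% were at least 2-fold higher and 0.743% at least 2-fold lower. At 1.5-fold, 4 of the 41 genes were lower (9.76%) and 0 higher, beside 6.29% lower and 3.95% higher among the well expressed genes. Those 4 were Tmsb10, Myl12b, Rac2 and Rhog. The count of 4 depended on the scaling, with 1 gene lower at 1.5-fold with quantile normalization, with totals without Rn45s or after GC removal, 2 scaled to Actb, 3 after length removal and 8 relative to the reference genes. In 3 of the alternatives (scaled to Actb, totals without Rn45s, length removal) 1 gene, Capza2, was higher at 1.5-fold. The shares of all well expressed genes past 1.5-fold in the alternatives are not given here, so these counts have no background. The median of all well expressed genes moved as well, to 0.13 with totals without Rn45s and to -0.19 relative to the reference genes. The share of lower genes among highly expressed genes was itself high. Where both libraries were at 14 or more on that scale, 73.7% of all 635 genes were lower (median -0.16), beside 21 of 24 of the actin cytoskeleton genes (87.5%, median -0.16). The 41 genes together held 3.81% of all normalized counts in WT and 3.60% in the library labelled KO.

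**Figure D1:**
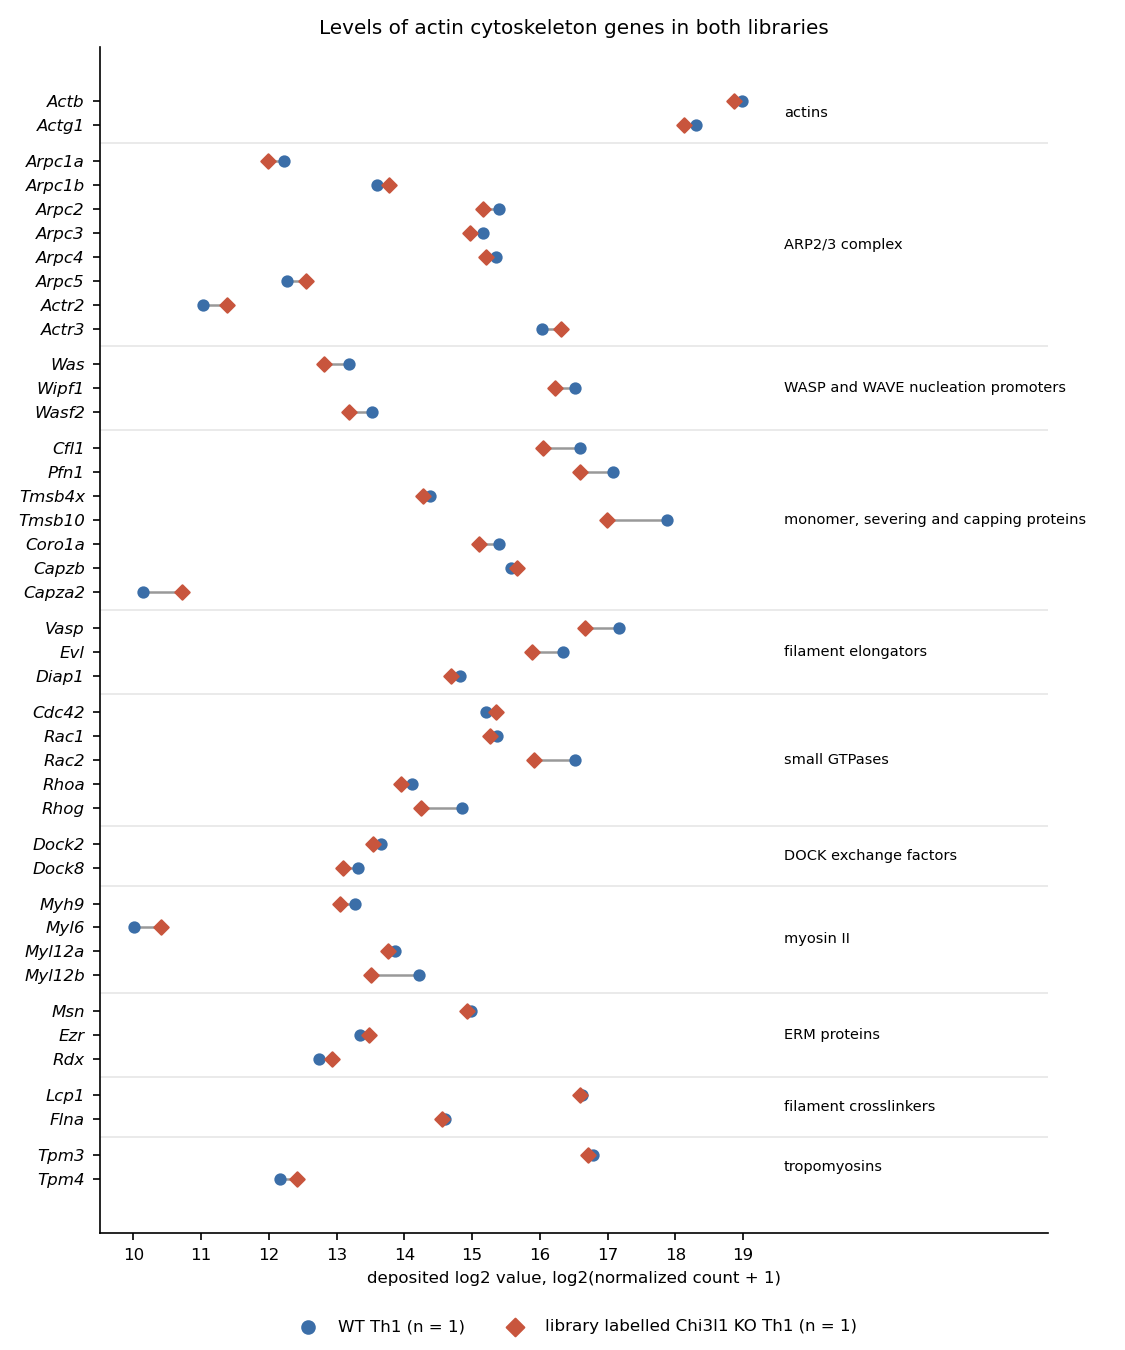
Deposited log2 values (horizontal axis, log2 of normalized count plus 1) of the 41 genes, by role, in WT Th1 (circles) and in the library labelled Chi3l1 KO Th1 (diamonds), 1 library each. Levels run from about 10 (Myl6, Capza2) to about 19 (Actb), and the gap between both libraries is small beside that range.

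Both actins were slightly lower in the library labelled KO as deposited, but Actb was at 0.03 with totals without Rn45s and Actg1 at 0.02 with quantile normalization. Actb (chromosome 5, 142903115 to 142906754, GRCm38, GENCODE M21, as for all gene positions) was at 18.99 in WT and 18.87 in the library labelled KO, a difference of -0.12, or 0.923 times the WT count. The interval of this difference from read counting alone, an exact binomial (Clopper-Pearson) 95% interval, was -0.12 to -0.11, from about 536839 rebuilt reads in WT and 496235 in the library labelled KO. Such intervals excluded 0 for all 41 genes, and they cover counting error only, not the spread between mice or cultures. Actg1, the gene of cytoplasmic γ-actin, was at 18.31 and 18.13 (difference -0.18). Reads of Actg1 may be shared, since 51.1% of the 100-base windows of its longest transcript also occur in transcripts of 6 other genes, compared to 1.10% for Actb. Together the 2 actins held 1.23% of all counts in WT and 1.26% in the library labelled KO, so their summed share was not lower. The share of Actb was 0.760% and 0.788%, and that of Actg1 0.474% and 0.469%.

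Actb was set beside 18 other genes often used to scale RT-PCR. Of these, 11 were higher and 7 lower in the library labelled KO as deposited, with a median difference of 0.18. The lowest was Gapdh, a glycolytic enzyme gene, at 20.70 and 20.09 (difference -0.61). The highest was Ywhaz, a 14-3-3 protein gene, at 16.40 and 16.90 (0.50). As deposited, Rplp0, a ribosomal protein gene (-0.07), and Tbp, the TATA-binding protein gene (0.06), were the only 2 of the 18 with a difference closer to 0 than that of Actb, and 6 were lower than Actb. This order depended on the processing. After GC removal Hprt (0.01), Rplp0 (0.03) and Rpl13a (-0.04) were closer to 0 than Actb (-0.065), and Tbp (-0.13) was not. The median of the 18 was then 0.07. The commonly used Hprt (0.23), B2m (-0.19) and Ppia (0.15) lay on both sides of 0. Expressed relative to Actb, the median of the 41 genes moved from -0.13 to -0.01, and relative to the median of the 18 other reference genes to -0.31. In the latter scaling Tmsb10 passed 2-fold at -1.07, where the median of all well expressed genes was -0.19. The share of all genes past 2-fold in that scaling is not given here.

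**Figure D2:**
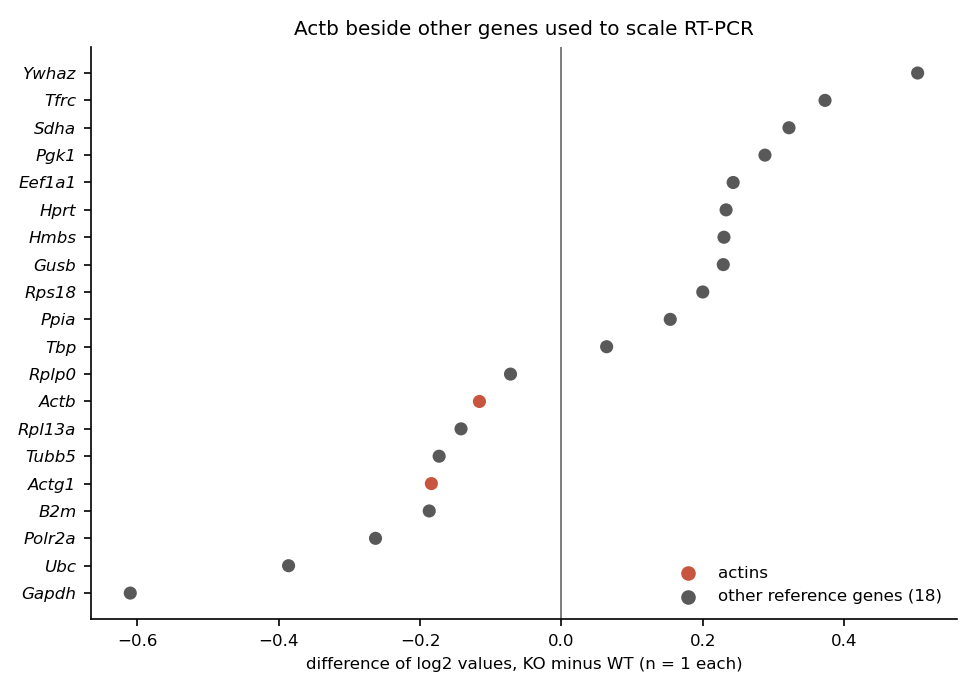
Difference of log2 values, KO minus WT (horizontal axis, n = 1 each), of Actb and Actg1 (red) and of 18 other genes used to scale RT-PCR (grey), ordered by value. Actb at -0.12 and Actg1 at -0.18 sit in the lower part of a range from -0.61 (Gapdh) to 0.50 (Ywhaz).

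The ARP2/3 complex, which starts a new filament on the side of an old one, did not move in 1 direction: 4 of its 8 genes were higher and 4 lower, and only Arpc4 changed sign in any alternative, to 0.07 with quantile normalization. The actin-related subunits that begin the new filament were both higher in the library labelled KO. Actr2 was at 11.02 in WT and 11.39 in the library labelled KO (difference 0.37). Actr3 was at 16.03 and 16.32 (0.29), though 22.4% of its windows occur in other genes, most in Gm8822. The scaffold subunits were both lower, with Arpc2 at 15.40 and 15.16 (-0.25) and Arpc4 at 15.35 and 15.21 (-0.14). Arpc3, another subunit, was at 15.16 and 14.97 (-0.19). Arpc5, a further subunit, was at 12.26 and 12.55 (0.28).
The 2 alternative forms of the ARPC1 subunit went in opposite directions. Arpc1a was at 12.22 and 11.98 (-0.23) and Arpc1b, the form that predominates in blood cells, at 13.60 and 13.78 (0.18). Of the windows of Arpc1b, 31.1% occur in other genes, most in its neighbour Pdap1. The median difference of the 8 genes was 0.02 as deposited and -0.16 relative to the reference genes.

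The activators of ARP2/3 were lower in the library labelled KO, in all 3 genes and in all 9 alternatives. Was, the gene of the Wiskott-Aldrich syndrome protein WASP, was at 13.18 in WT and 12.82 in the library labelled KO (difference -0.36). Wipf1, which codes for the partner WIP that protects WASP from degradation, was at 16.52 and 16.23 (-0.29). Wasf2, the WAVE2 gene, was at 13.53 and 13.19 (-0.34). None of the 3 reached 1.5-fold, and none shares a window with another gene. Beside these, 21 further genes of the WAVE complex and ARP2/3 regulation, of which 17 were well expressed, split into 6 higher and 11 lower. Nckap1, a WAVE complex subunit gene, was the highest at 0.93 (0.80 after GC removal). Its level was low, at 8.39 in WT and 9.32 in the library labelled KO. Abi3, also of the WAVE complex, was the lowest at -0.78 (-0.33 after GC removal).

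Genes of proteins that bind actin monomers or cut and cap filaments had the widest range of any role, from -0.90 to 0.57. Tmsb10, the gene of the monomer-binding thymosin β10 (chromosome 6, 72957347 to 72958748), was at 17.88 in WT and 16.99 in the library labelled KO. Its difference of -0.90 (counting interval -0.90 to -0.89), 0.538 times the WT count, was the lowest of the 41, and 1.23% of well expressed genes were as low or lower. It stayed between -0.55 and -1.07 in all alternatives, and 21.5% of its windows occur in other genes, most in Gm9844. Its paralog Tmsb4x, on the X chromosome, differed far less, at 14.38 and 14.28 (-0.10), with values above 0 in 3 of the 9 alternatives.
Cfl1, the cofilin gene, was at 16.59 and 16.05 (-0.53), and Pfn1, the profilin gene, at 17.08 and 16.59 (-0.48). Both were lower in all 9 alternatives, where the value closest to 0 was -0.34 for Cfl1 and -0.13 for Pfn1. Coro1a, which codes for the leukocyte coronin that works with ARP2/3 and cofilin, was at 15.39 and 15.11 (-0.28) but at 0.06 after the trend with GC content was removed.
Capping protein is made of an α and a β chain, and both of its genes among the 41 were higher as deposited. Capza2 (chromosome 6, 17636234 to 17666972) was at 10.15 and 10.72 (0.57, counting interval 0.46 to 0.68), the highest difference of the 41, and 4.34% of well expressed genes were as high or higher. Capzb was at 15.57 and 15.66 (0.09) and at -0.09 relative to the reference genes. Capza1, an α chain gene outside the 41, was at 13.77 and 13.91 (0.13) and at -0.06 after GC removal. It is named here after its value was seen. Of 19 further genes of this role, 14 were well expressed, 7 higher and 7 lower. Twf1, a twinfilin gene of low level (8.50 and 9.21), was the highest (0.71, and 0.52 after GC removal). Rltpr, a capping protein regulator also called Carmil2, was the lowest (-0.64, and -0.18 after GC removal).

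Genes of proteins that lengthen filaments were lower in the library labelled KO as deposited, with Diap1 above 0 with quantile normalization (0.05) and with totals without Rn45s (0.01). Vasp was at 17.17 in WT and 16.67 in the library labelled KO (difference -0.50). Evl, the other Ena/VASP gene of T cells, was at 16.35 and 15.89 (-0.46), and 8.60% of its windows occur in another gene, Degs2. Diap1, the mDia1 formin gene, was at 14.82 and 14.69 (-0.13). After removal of the GC trend the values of Vasp and Evl came to -0.16 and -0.01. Of 13 further formin genes, 6 were well expressed, and 5 of the 6 were lower, from Inf2 (-0.45) to Diap3 (0.16), but the median of the 6 went from -0.34 to -0.05 after GC removal.

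The small GTPases, the switches upstream of these proteins, did not move together, with 2 of the 5 past 1.5-fold as deposited, both lower. Over all well expressed genes 6.29% were lower at 1.5-fold, and over all genes at 14 or more in both libraries 7.72%. Rac2, the Rac of blood cells (chromosome 15, 78559167 to 78572783), was at 16.52 in WT and 15.91 in the library labelled KO (difference -0.61, 0.654 times the WT count). Rhog, a Rac-like GTPase (chromosome 7, 102239123 to 102256054), was at 14.85 and 14.25 (-0.60). Both were lower in all 9 alternatives, Rac2 between -0.45 and -0.79 and Rhog between -0.34 and -0.78, but neither was past 1.5-fold with quantile normalization (-0.45 and -0.44), scaled to Actb (-0.50 and -0.48), with totals without Rn45s (-0.47 and -0.46) or after GC removal (-0.52 and -0.34), and after length removal Rhog was at -0.58.
The other members lay within 0.2 of 0 as deposited. Rac1 was at 15.36 and 15.26 (-0.10), with 54.4% of its windows shared with the overlapping gene Daglb. Rhoa was at 14.11 and 13.95 (-0.16), lower in all alternatives. Cdc42 was the only 1 of the 5 that was higher, at 15.21 and 15.35 (0.14), but it was at -0.05 after GC removal and at -0.04 relative to the reference genes. Rac1 was above 0 with 3 of the scalings.
Both DOCK genes were slightly lower as deposited, but Dock2 was at 0.01 with quantile normalization and 0.02 with totals without Rn45s. Dock2, which activates Rac in lymphocytes, was at 13.66 and 13.54 (-0.12). Dock8, which activates Cdc42 and whose loss causes immunodeficiency, was at 13.31 and 13.10 (-0.21).

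Myosin II, the motor that contracts actin filaments, consists of heavy chains, essential light chains and regulatory light chains, and its genes did not move together. Myl12b, a regulatory light chain gene (chromosome 17, 70973133 to 70990890), was at 14.22 in WT and 13.51 in the library labelled KO, a difference of -0.71 (counting interval -0.74 to -0.67), lower in all 9 alternatives. Its neighbour and paralog Myl12a (70993656 to 71002878) was at 13.86 and 13.77 (-0.09), above 0 with 3 of the scalings. The summed reads of such a pair can be split between them in counting, since 24.5% of the windows of Myl12a also occur in transcripts of Myl12b, and 1.03% of those of Myl12b in Myl12a. Myl6, the essential light chain gene, was at 10.01 and 10.41 (0.40), higher in all 9 alternatives and the highest of the 41 after GC removal (0.50). Myh9, the non-muscle heavy chain IIA gene, was at 13.27 and 13.06 (-0.21) and at 0.05 after GC removal.
Of 16 further myosin genes 7 were well expressed, 2 higher and 5 lower, all between Myo6 (-0.17) and Myo1g (0.22).

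The genes that tie filaments to the membrane and to each other differed little. Among the ERM proteins, Msn, the moesin gene and the main ERM gene of lymphocytes, was at 14.98 in WT and 14.93 in the library labelled KO (difference -0.05). Ezr, the ezrin gene, was at 13.35 and 13.48 (0.13), and Rdx, the radixin gene, at 12.75 and 12.93 (0.18). Every 1 of these 3 changed sign in at least 1 alternative, Msn with 3 scalings, Ezr relative to the reference genes (-0.04) and Rdx after GC removal (-0.01).
Lcp1, the gene of the leukocyte bundling protein L-plastin, was at 16.63 and 16.60 (-0.03), the difference closest to 0 of all 41. Flna, the filamin A gene, was at 14.60 and 14.56 (-0.04). Both were above 0 with 3 of the scalings. Tropomyosins, which coat filaments, were split, with Tpm3 at 16.79 and 16.71 (-0.08) and Tpm4 at 12.17 and 12.42 (0.25), and Tpm4 was higher in all 9 alternatives while Tpm3 was above 0 with 3 of the scalings.
Of 22 further bundling and cortical adaptor genes 17 were well expressed, 6 higher and 11 lower. Zyx, the zyxin gene, codes for a protein that gathers at strained filaments. As deposited (-1.13) it was the only gene past 2-fold among all 110 well expressed other genes of the actin pathway. Over all well expressed genes, 0.461% were at least 2-fold higher and 0.743% at least 2-fold lower. After GC removal Zyx was at -0.92, inside 2-fold. Those 110 genes comprised 40 higher and 70 lower, with a median of -0.09 as deposited, 0.03 scaled to Actb and 0.05 with totals without Rn45s.

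**Figure D3:**
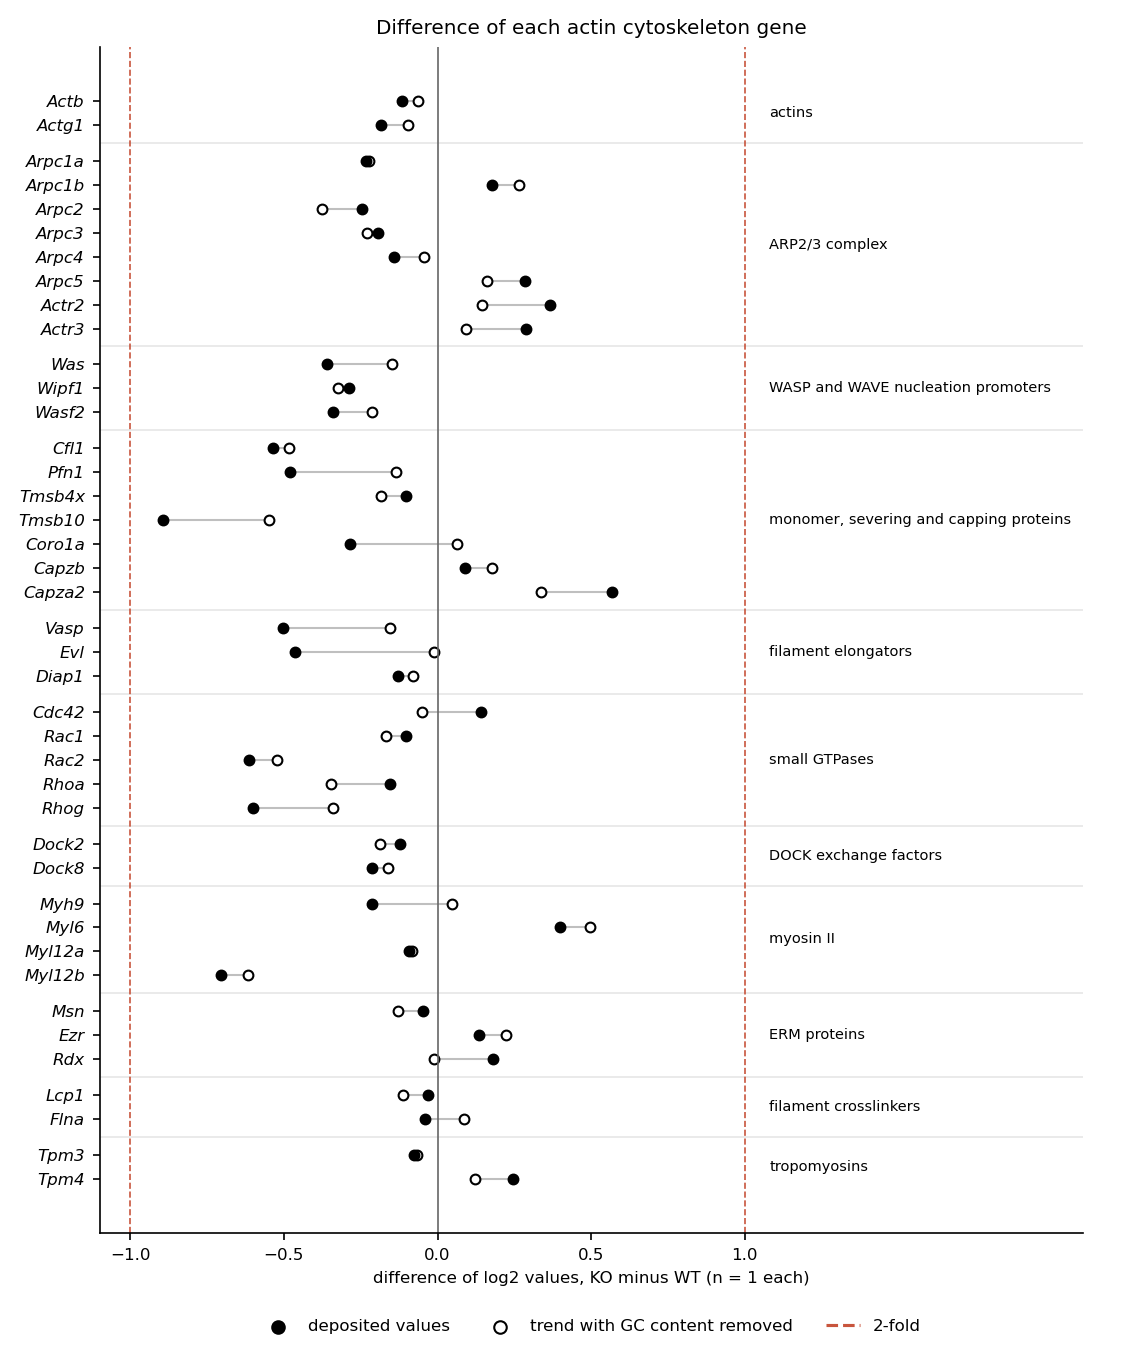
Difference of log2 values, KO minus WT (horizontal axis, n = 1 each), of each of the 41 genes by role, from the deposited values (filled) and after removal of the trend with transcript GC content (open). All filled points lie inside the 2-fold lines, from -0.90 (Tmsb10) to 0.57 (Capza2), and 5 genes change sign between filled and open points.

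The differences followed the GC content of the transcripts. Across the 41 genes, Spearman's correlation of the difference with GC content was -0.63 (Pearson's r -0.70, across genes, which share both libraries and are not replicates), and across 8848 well expressed genes it was -0.53. Of the 16 genes under 50% GC, 7 were higher (median -0.04), while 69.3% of the 4411 well expressed genes of that range were higher (median 0.15). From 50% to under 55% GC, 4 of 17 were higher (median -0.13; all genes, 39.2% higher and median -0.08). At 55% or more, 0 of 8 were higher (median -0.47; all genes, 15.9% higher and median -0.29). These 8 genes were Was, Pfn1, Tmsb10, Coro1a, Vasp, Evl, Rhog and Myh9. Capza2, the highest, had the lowest GC content of the 41 at 36.1%.
After the median trend over 20 GC bins was subtracted, 29 of the 41 were lower with a median of -0.10, and the SD across genes went from 0.316 to 0.240. Coro1a, Cdc42, Myh9, Rdx and Flna changed sign. Tmsb10 was then at -0.55, Myl12b at -0.62 and Rac2 at -0.52, the lowest 3. Whether GC content or a property that goes with it takes part in these differences was not tested.

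**Figure D4:**
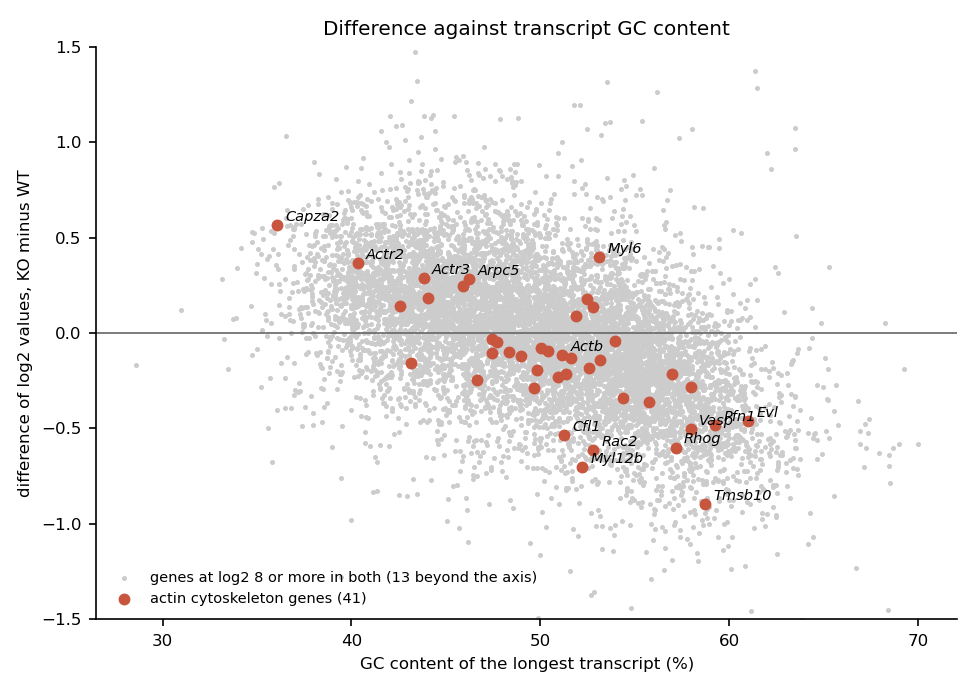
Difference of log2 values, KO minus WT (vertical axis), against GC content of the longest transcript in percent (horizontal axis), for the 41 actin cytoskeleton genes (red) and all well expressed genes with a transcript (grey). Red points and the grey cloud both slope down with GC content. The red points run from Capza2 at 36.1% GC (0.57) to Evl at 61.0% GC (-0.46). Tmsb10 at 58.7% GC (-0.90) lies lowest and was still at -0.55 after the GC trend was removed.

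The differences also followed the level. Spearman's correlation with the mean log2 value of both libraries was -0.41 across the 41 genes, which again share both libraries. The median of all well expressed genes went from 0.04 at a mean log2 value of 8 to 9 (1113 genes) to -0.18 at 15 to 16 (179 genes). The 4 genes of the 41 under a log2 value of 12 in WT or in the library labelled KO were Arpc1a, Actr2, Capza2 and Myl6, and 3 of them were higher. Of the 37 others, 29 were lower (78.4%), beside 63.6% of all 2480 genes at 12 or more in both libraries.

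**Figure D5:**
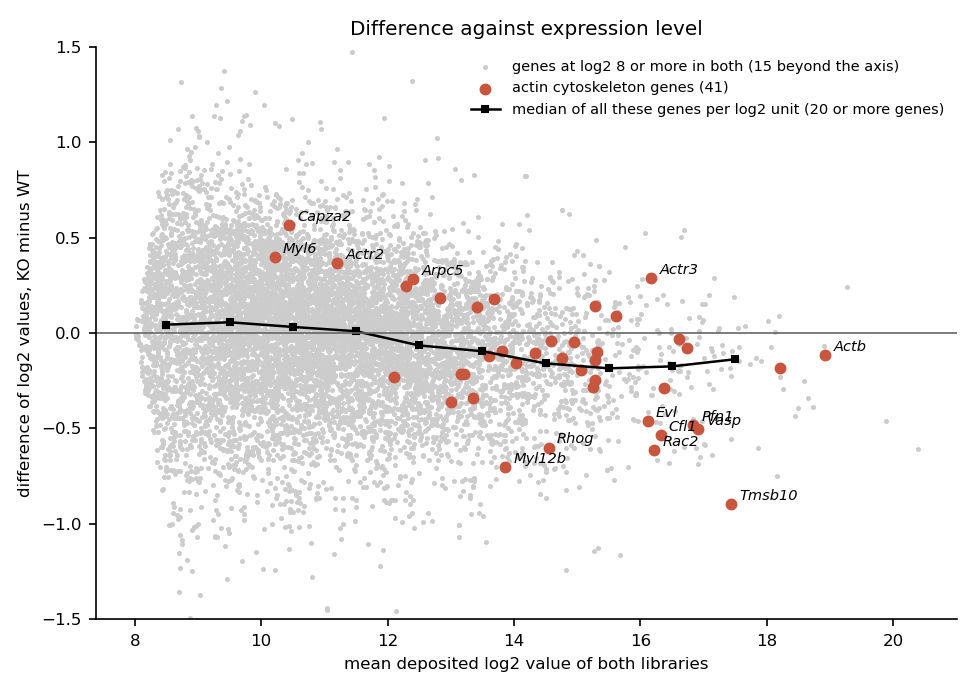
Difference of log2 values, KO minus WT (vertical axis), against the mean log2 value of both libraries (horizontal axis), for the 41 genes (red) and all well expressed genes (grey), with the median of all well expressed genes per log2 unit (black squares). The black line goes from 0.04 at the left to -0.18 at 15 to 16, and Actr3 at 0.29 and Tmsb10 at -0.90 lie far from it.

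Per length, the same 5 genes led the order of the 41 in both libraries, with the top 2 exchanged. In normalized counts per kilobase of the longest transcript, Tmsb10 had 350080.2 in WT and 188254 in the library labelled KO, and Actb 270992 and 250056, so that Tmsb10 came first in WT and Actb first in the library labelled KO. Actg1 followed with 166371 and 146449, then Pfn1 with 69136 and 49535, and Vasp with 66528 and 46945. The longest transcript of Pfn1 is not a coding one, and per kilobase of the longest coding transcript its values were 160354 and 114891, close to those of Actg1.
The subunits of ARP2/3, which are needed in equal number in the complex, spread widely in transcript level per kilobase, from Arpc3 (40752 in WT) to Actr2 (572). Actr3 moved from place 14 in WT to place 8 in the library labelled KO and Rac2 from place 10 to place 15. Wasf2 (2093 and 1653), Dock2 (2020 and 1856), Rdx (1568 and 1779), Myh9 (1328 and 1146) and Dock8 (1300.1 and 1122) were low. Myl6 (339.6 and 447) and Capza2 (308 and 457) were last, and their coding transcripts are shorter, with Myl6 at 619 and 815 and Capza2 at 447 and 663 per coding kilobase. No spread between replicates exists to say which neighbours in this order differ.

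The genes of SRF and its coactivators, which read the pool of monomeric actin, were examined together with early targets of SRF. Of 12 such genes found, 7 were well expressed, 5 lower and 2 higher, with a median of -0.55 (all well expressed genes, -0.01), which was below 0 in all 9 alternatives and -0.13 after GC removal. Ier2, an immediate early gene, was the lowest, at 12.42 in WT and 11.54 in the library labelled KO (-0.88). Mkl2, the MRTF-B gene, was the highest (0.19), and Fos, an early target of SRF, was also higher (0.10). Egr1 (-0.80) and Junb (-0.70) were lower, at -0.54 and -0.25 after GC removal. With Ier2, 3 of the 7 were lower at 1.5-fold (42.9%), beside 6.29% of all well expressed genes. Srf itself was at 12.23 and 11.68 (-0.55) and Mkl1, the MRTF-A gene, at 14.37 and 13.89 (-0.48). Srf, Mkl1, Fos, Egr1 and Junb are named here after their values were seen. Of all well expressed genes, 51.2% were lower.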

How the data were processed

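Libraries of polyadenylated RNA were prepared with the SENSE mRNA-Seq kit and sequenced from both ends. The authors mapped reads with TopHat to mm10 (build and tools from the submitters' processing notes), counted unique and multiple alignments and used edgeR and a global normalization, and they also describe FPKM estimates from cufflinks. The deposited values, 1 per gene symbol and library, are read as log2 values, log2(normalized count + 1). The unit rests on the values: on the linear scale 99.9% of those worth 5 to 60 reads lay within 0.1 reads of whole multiples of a step (0.969 in WT, 0.968 in the library labelled KO). Since 1 step serves genes of any length, the values were taken as not divided by length. The counter and annotation are not given in the sources used here.

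Differences were subtractions, with no test (n = 1 each). Reads were rebuilt with the step for counting intervals. GENCODE M21 (GRCm38) held all 41 genes and gave GC content, length and the 100-base windows shared with any transcript of another gene. The GC or length trend was the median in 20 bins over genes at 8 or more on the log2 scale in each library. The 9 alternatives were pseudocounts of 0.1 or none, quantile normalization, scaling by the median ratio, by Actb, by totals without Rn45s or by 18 reference genes, and removal of either trend. All 41 members were named, and from each further list the genes past 2-fold, otherwise its highest and lowest. Results of 2 further lists are not reported here. Members and lists were chosen with earlier results of these data known. Python 3.11.15 (scipy 1.17.1, pandas 2.3.3, numpy 2.4.6; figures with matplotlib 3.10.9) was used, and the scripts were tested on simulated data.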

Additional observations from a re-analysis of the deposited data

How the results depend on the processing

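The pseudocounts left every direction as it was, and 23 of the 41 genes (16 lower, 7 higher) kept their direction in all 9 alternatives. The median of all well expressed genes moved by over 0.1 with 3 scalings, by 0.12 for Actb, by 0.14 for totals without Rn45s and by -0.18 for the reference genes. With quantile normalization 19 genes were lower and 11 changed sign, the median of the 41 was 0.0175 and Actb was at -0.0245. Scaled to Actb, 7 changed sign and the median was -0.014. With totals without Rn45s, 10 changed sign, the median was 0.0114, Actb was at 0.0254, and the 41 genes held 3.92% of counts in WT and 3.63% in the library labelled KO. Relative to the reference genes, 3 changed sign, the median was -0.307, Actb was at -0.293 and 1 gene passed 2-fold. The median of all well expressed genes was -0.188 in that scaling. Median-ratio scaling put Actb at -0.11. Removal of the GC trend gave a median of -0.0955 and Actb at -0.065, and removal of the length trend gave Actb at -0.024. At 1.5-fold, 4 genes passed as deposited, all lower (9.76%, beside 6.29% of all well expressed genes). A median over the genes with no shared window, chosen after seeing the data, was -0.17. The cause of these shifts was not tested. No paired analysis was possible because there is 1 sample per genotype. Protein identity between related members was not run. Depth gives narrow counting intervals but no measure of the spread between mice or cultures.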

Other observations

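Actins of other tissues were near the limit of detection in both libraries. Acta1, the skeletal muscle actin gene, was at a log2 value of 3.76 in WT and 5.54 in the library labelled KO, and Acta2, the smooth muscle actin gene, at 0.94 and 2.54. Actg2 went the other way, at 1.95 and 0.94, and Actbl2 was at 1.54 and 2.55. Actc1, the cardiac actin gene, and Actl6b were listed at 0 in both. Actl6a, which codes for an actin-related subunit of chromatin remodelling complexes, was well expressed at 10.72 and 11.33, a difference of 0.61. These genes were taken from a list of 7 actin and actin-related genes, and apart from Actl6a they are named here after their values were seen.

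Among markers of other cells, 5 neutrophil genes summed to 30.9 normalized counts in WT and were all listed at 0 in the library labelled KO. Sums over 6 platelet markers were 101 and 55.1, over 6 erythroid markers 10.4 and 18.4, and over 8 smooth muscle and fibroblast markers 353 and 401. The erythroid sum rose through Alas2 alone (3 and 19 rebuilt reads), while Hba-a1, Hba-a2, Hbb-bs and Hbb-bt fell to 0 in the library labelled KO. In the last list Col1a1 (148 and 105 reads) and Cnn1 (2 and 1) were lower there. Myh11 (155 and 222), Tagln (58 and 81) and Acta2 (1 and 5) were higher. Of the 2 CD8 genes, Cd8a was at 8.13 in WT and 8.73 in the library labelled KO, and Cd8b1 at 9.06 and 8.59.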
